A study of Mus musculus with 14 samples.

Results

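The genes described here encode the proteins of the cytosolic ribosome in mouse bone marrow-derived macrophages, the macrophages that grow out of bone marrow cells in culture. Members were the genes whose symbol is Rpl, Rps, Rplp or Rpsa with its number and, where present, a suffix letter or the l of a paralog, which leaves out pseudogenes and the ribosomal S6 kinases. This gave 85 of the 21761 genes in the exon count files, 53 of the large and 32 of the small subunit, and 82 of the 18858 genes in the intron count files. The libraries compared were of untreated cells of strain FVB/Hsd on the 7th day of differentiation, infected with retroviruses and selected with puromycin. The 2 knockdown libraries carried a short hairpin RNA against Wdr82, sh1137 in one and sh830 in the other, and the 2 controls, scrambled 1 and scrambled 2, carried a scrambled hairpin. Each knockdown library is thus a different hairpin, and the hairpins came from retroviral infection of primary marrow cells. Nothing in the labels says that the 2 libraries of a group were separate animals or cultures. The p-values thus rest on these libraries alone, and in the main fits only on the spread left after the library term described below. RNA was total RNA depleted of ribosomal RNA and made into strand-marked libraries. The study asked what WDR82, a subunit of complexes that act on early transcription by RNA polymerase II, does to transcription in macrophages.

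A ribosome is built from a small subunit that reads the mRNA and a large subunit that joins amino acids, and each holds ribosomal RNA and one copy of most of its proteins. The genes of these proteins are among the most highly expressed of any cell and their products are made in near-equal amounts. Their mRNAs begin with a run of pyrimidines, the terminal oligopyrimidine or TOP element, through which mTOR and LARP1 control their translation and stability, and many of their introns hold small nucleolar RNAs (snoRNAs), which guide modification of ribosomal RNA.

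Wdr82 had 25.1 CPM in the sh1137 library and 40.7 CPM in the sh830 library, against 100 CPM in scrambled 1 and 144 CPM in scrambled 2, where CPM is exon counts per 1000000 after trimmed-mean (TMM) scaling. Both hairpin libraries lay below both scrambled libraries. The difference was -1.91 ± 0.094 (log2, SE, n = 2 each) with an adjusted p of 0.00211 (edgeR quasi-likelihood F-test, Benjamini-Hochberg over all features fitted). Gene exon counts totalled 34787556 in sh1137 and 43372731 in sh830, against 40074419 in scrambled 1 and 42635790 in scrambled 2, and gene intron counts totalled 27506915 and 7793113, against 27189233 and 7294679. Introns thus took 44.2% of the counts in sh1137 and 15.2% in sh830, against 40.4% in scrambled 1 and 14.6% in scrambled 2: each group held an intron-rich library (sh1137, scrambled 1) and an intron-poor one (sh830, scrambled 2). The labels name no batch for this. It is a measured difference, and the fits given here, that of Wdr82 included, carry a term for it beside the group term, which leaves 1 residual degree of freedom. This term takes out the spread between the kinds of library, so SEs and p-values of fits with it do not measure that spread. Each hairpin was in 1 kind of library only, so hairpin and kind cannot be told apart. With the group term alone Wdr82 itself did not pass (adjusted p = 0.441, edgeR). All 8 macrophage markers examined were present, with Csf1r at 2208 and 2311 CPM in the hairpin libraries, against 2693 and 2194 CPM in the scrambled ones. Of these markers 2 were lower in the knockdown libraries and 0 higher. Fcgr1, a receptor for IgG, had 41.5 and 51.6 CPM, against 120 and 146 CPM (-1.51 ± 0.084, adjusted p = 0.0030, edgeR), and Cd68, a lysosomal protein, had 342 and 491 CPM, against 654 and 943 CPM (-0.94 ± 0.096, adjusted p = 0.0084, edgeR). Summed fibroblast markers came to 44.2 CPM in sh1137 and 146 CPM in sh830, against 9.61 CPM in scrambled 1 and 42.1 CPM in scrambled 2. Most of the sum came from Pdgfrb, Col1a1 and Col1a2, whose patterns differed. Pdgfrb had 42.3 and 37.3 CPM in the hairpin libraries, against 8.63 and 9.58 CPM in the scrambled ones. Col1a1 had 0.77 and 53.3 CPM, against 0.098 and 9.26 CPM, and Col1a2 had 0.75 and 50.2 CPM, against 0.83 and 21.5 CPM. Of the 5 fibroblast markers tested 2 were higher in the knockdown libraries, and Lum, the sixth, had 0 CPM in 3 libraries. The B cell marker Pax5 had 0 CPM in all 4 libraries, and the summed lists of neutrophil, B cell, T cell, erythroid, megakaryocyte and mast cell markers stayed between 0 and 17.0 CPM in each library. What part these cells have in the values of the ribosomal protein genes was not tested.

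The ribosomal protein genes were highly expressed throughout. Per kilobase of exon, the tested members had a median level of 342 CPM per kb over the 4 libraries, against 7.38 CPM per kb over all 13884 tested genes, and 71 of the 82 tested members lay above 84.4 CPM per kb, the 95th percentile of all tested genes. The quartiles of the members lay at 210 and 530 CPM per kb. The highest level was that of Rps29, a zinc-binding protein of the small subunit, with 527 CPM per kb in sh1137 and 1233 CPM per kb in sh830, against 674 in scrambled 1 and 1159 in scrambled 2. Rpl41, a very short peptide of the large subunit, had 394 and 1143 CPM per kb in the hairpin libraries, against 504 and 1407 in the scrambled libraries. Rpl10, which joins the large subunit at a late step of its assembly, had 408 and 1041 CPM per kb in the hairpin libraries, against 593 and 1284 in the scrambled libraries. In each of these genes the 2 libraries of a group differed more than the groups did. At the other end stood Rpl3l, a paralog of Rpl3 known from heart and skeletal muscle, with 0.33 and 0.18 CPM per kb, against 0.26 and 0.16, and Rpl39l, a paralog of Rpl39 known from testis, with 0.13 and 1.3 CPM per kb, against 0.21 and 0.44. The third lowest tested level was that of Rpl34, at 1.93 and 5.26 CPM per kb, against 3.12 and 7.00. Its interval in the annotation shares 407 of its 595 exon bases with the same-strand pseudogene Rpl34-ps1.

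**Figure D1:**
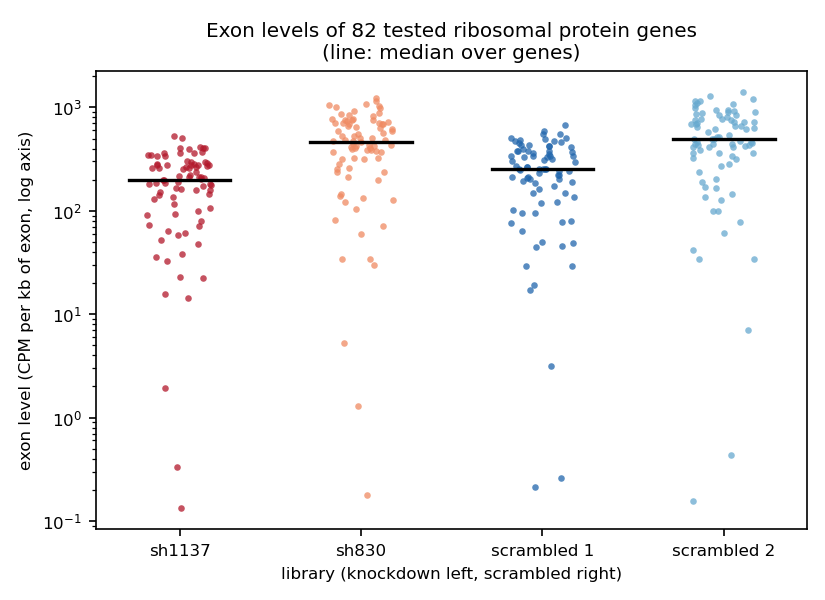
Exon level of each of the 82 tested members (points, CPM per kb of exon, log axis) in the sh1137, sh830, scrambled 1 and scrambled 2 libraries, with the median over members as a line. The medians are 201 CPM per kb in sh1137 and 464 in sh830, against 254 in scrambled 1 and 493 in scrambled 2, so libraries of one group lie further apart than the groups.

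Of the 85 members 3 failed the filter on low counts in exons and were not tested. Rpl10l, an intronless paralog of Rpl10 known from testis, had 0 counts in all 4 libraries, which allows up to 3 counts in each. Rps4l had 1 and 7 counts in the hairpin libraries, against 12 and 8 in the scrambled libraries. Rpl26 had 2 and 3 counts in the hairpin libraries, against 6 and 6 in the scrambled libraries, and shares 484 of its 543 exon bases with the same-strand gene Gm15772. How reads over shared bases were assigned is not given in the sources used here, so the low counts of Rpl26 and Rpl34 are uncertain as levels of these genes. Ribosomal protein genes also have many near-identical processed pseudogenes, between which reads can be split, and this holds for every level given here.

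Taken as one sum, the 85 members held 1.56% of all gene exon counts in sh1137 (95% Wilson interval 1.55 to 1.56%) and 3.30% in sh830 (3.29 to 3.30%), against 1.91% in scrambled 1 (1.90 to 1.91%) and 3.56% in scrambled 2 (3.56 to 3.57%). These intervals cover counting error only. The share was lower in the hairpin library than in the scrambled library of the same kind in both cases, and yet the groups overlapped, since sh830 lay above scrambled 1. An exact permutation of 2 against 2 libraries cannot give a p below 0.33, so the sum was not tested. The large subunit genes followed the same order, with 0.940% and 1.97% in the hairpin libraries, against 1.15% and 2.14% in the scrambled libraries, and so did the small subunit genes, with 0.618% and 1.33%, against 0.758% and 1.42%. In bulk RNA, fewer cells of a type and less RNA per cell cannot be told apart.

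The largest difference in these genes ran within the groups. The median member was 1.29 lower on the log2 scale in sh1137 than in sh830 (-1.29), and scrambled 1 minus scrambled 2 gave -1.06, while the medians over all tested genes were -0.04 and 0.00. Of the 82 tested members 81 were lower in sh1137 than in sh830 and 81 were lower in scrambled 1 than in scrambled 2, against 52.2% and 49.7% of all tested genes. The exception was Rpl3l in both. Between the groups, sh1137 minus scrambled 1 had a median of -0.35 over the members, with 81 of 82 lower against 54.7% of all tested genes, and sh830 minus scrambled 2 had a median of -0.13, with 63 of 82 lower against 49.9% of all tested genes. Of the 79 tested members above 10 CPM per kb, 78 had both differences between the groups smaller than both differences between libraries of a group, and Rpl39 was the exception. The widest library difference among those 79 was that of Rps27l, a p53-induced paralog of Rps27, with 27.2 CPM in sh1137 and 111 CPM in sh830, against 36.2 CPM in scrambled 1 and 133 CPM in scrambled 2. Over the 82 members the library differences of the hairpin and of the scrambled libraries went together (Pearson's r = 0.73, Spearman's rho = 0.76 across genes). Genes are not independent replicates, and all members share these 4 libraries and their depths.

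**Figure D2:**
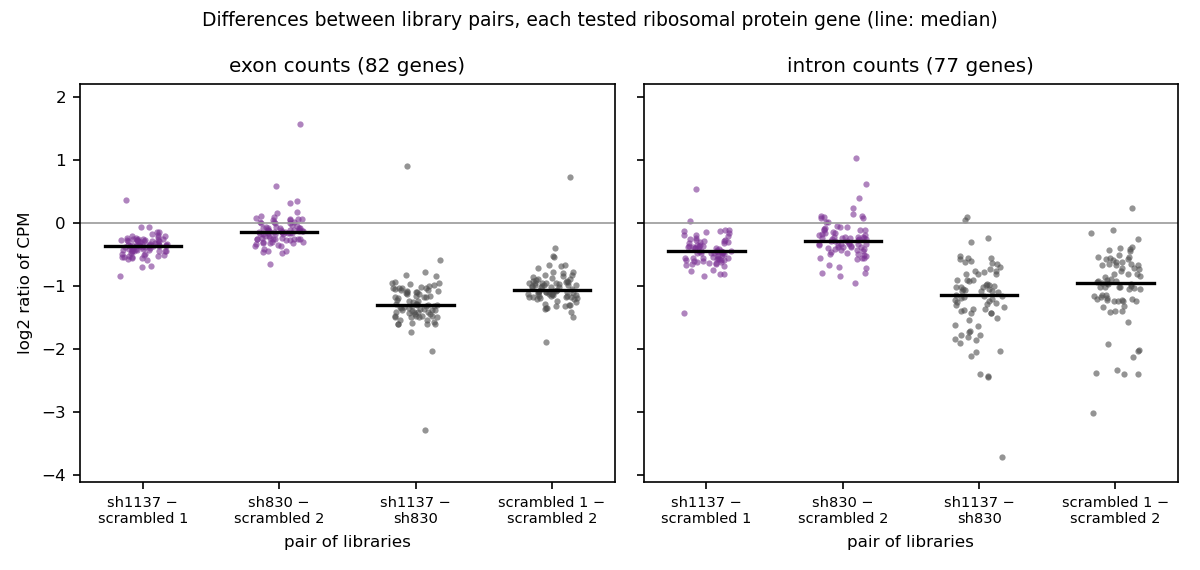
Log2 ratio of CPM between pairs of libraries for each tested member (points; line, median), in exon counts on the left and intron counts on the right. In exons the medians are -0.35 (sh1137 against scrambled 1) and -0.13 (sh830 against scrambled 2), and -1.29 and -1.06 for the 2 libraries within the knockdown and the scrambled group.

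With the library term in the fit, 8 of the 82 tested members had lower exon counts in the knockdown libraries at an adjusted p under 0.05 and 0 had higher ones, with edgeR's quasi-likelihood test and p-values adjusted by Benjamini-Hochberg over all 13884 genes and the regions fitted with them. Of all tested genes 7.92% were called lower and 6.06% higher, so the members' share called was near the background. Among the members called were 6 of 51 large subunit genes and 2 of 31 small subunit genes. Of the 82 log2 fold changes 75 were negative, against 7151 of 13884 over all genes, and their median was -0.22, against -0.01 over all tested genes. Their quartiles were -0.33 and -0.16, and they ran from -0.65 to 0.81. At an unadjusted p under 0.05, 35 members were lower and 0 were higher, against 18.3% and 14% of all tested genes, and 20 members lay between adjusted p-values of 0.05 and 0.1, all with negative fold changes. DESeq2 with the same terms also called 0 members higher and called 23 lower, where 7.87% of the 13019 genes it gave an adjusted p were lower and 5.63% higher. With the group term alone, edgeR and DESeq2 both called 0 members, but edgeR then also called 0 of all 13884 tested genes. At an unadjusted p under 0.05 that edgeR fit had 0 members, where 1.51% of all tested genes were lower and 3.15% higher. With TMM factors from the other genes edgeR called 16 members, and with library totals 5, but calls over all genes were not counted for these settings. Leaving out 1 library, with the group term alone, the members' median became 0.29 without sh1137, -0.98 without sh830, -0.64 without scrambled 1 and 0.45 without scrambled 2. In these fits the kinds of library are not balanced between the groups, so group and library differences cannot be told apart. No tested member had both hairpin libraries below both scrambled libraries, whereas 15.7% of all tested genes did.

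**Figure D3:**
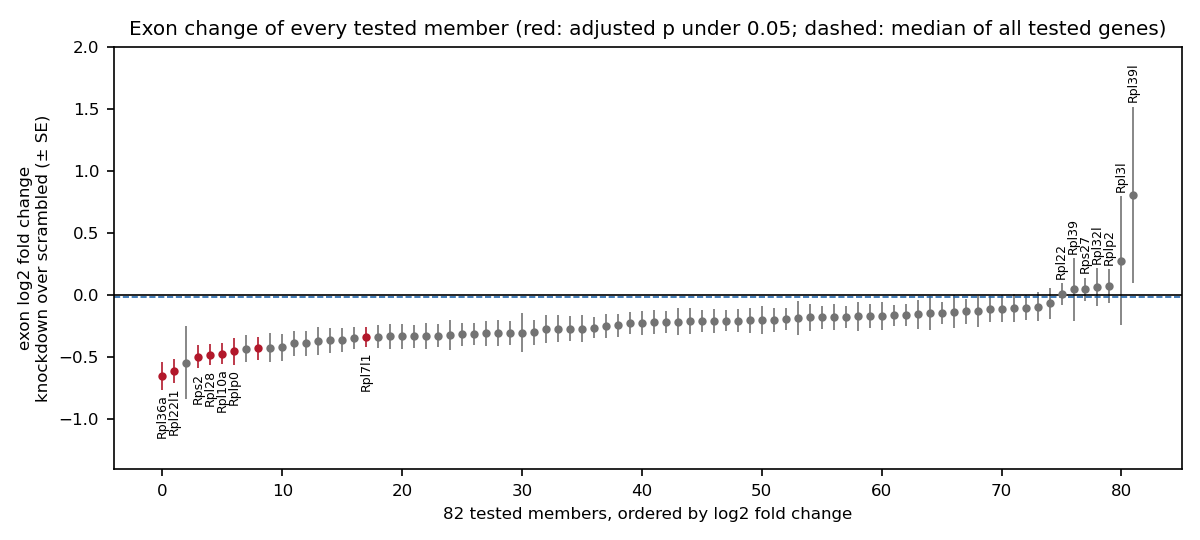
Exon log2 fold change of the knockdown over the scrambled libraries, with its SE, for the 82 tested members in rising order. Red points are the 8 members with an adjusted p under 0.05, from -0.65 (Rpl36a) to -0.33 (Rpl7l1), the 7 members above zero are named, and the dashed line is the median of all tested genes.

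The stretches below are from RefSeq, build GRCm38.p6, and are shown for 5 of the 8 members called in exons. A TOP element lies at the start of an mRNA, and whether the stretches hold one was not tested. Each runs 100 bases before the RefSeq start and 25 bases from it, 5′ to 3′ on the gene's strand, and capitals mark a run of at least 6 bases of C or T only, searched from 15 bases before the start to the end of the stretch.
Rpl22l1: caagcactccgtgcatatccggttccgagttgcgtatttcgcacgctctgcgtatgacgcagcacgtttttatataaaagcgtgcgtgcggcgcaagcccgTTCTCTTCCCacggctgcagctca
Rpl36a: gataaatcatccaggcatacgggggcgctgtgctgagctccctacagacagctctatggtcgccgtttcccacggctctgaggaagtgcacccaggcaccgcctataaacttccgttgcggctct
Rpl28: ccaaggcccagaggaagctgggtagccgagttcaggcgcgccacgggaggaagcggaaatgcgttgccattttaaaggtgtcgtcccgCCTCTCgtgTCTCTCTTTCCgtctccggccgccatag
Rps2: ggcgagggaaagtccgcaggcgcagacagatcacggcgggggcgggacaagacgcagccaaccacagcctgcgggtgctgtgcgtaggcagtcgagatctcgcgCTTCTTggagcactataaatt
Rplp0: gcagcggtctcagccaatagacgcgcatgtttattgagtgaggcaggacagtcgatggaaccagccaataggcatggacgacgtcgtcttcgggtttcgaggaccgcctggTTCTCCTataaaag
They lie on the plus strand at chr3:28805408-28805532 (Rpl22l1), chrX:134585554-134585678 (Rpl36a), chr7:4792865-4792989 (Rpl28), chr17:24719963-24720087 (Rps2) and chr5:115559367-115559491 (Rplp0). RefSeq windows matched 64 of the 85 members, among them 7 of the 8 called, and the first window listed for each gene was used. Such a pyrimidine run was found in 62.5% of the 64 members and in 36.3% of all 27025 genes with a window, and in 5 of the 7 called members with a window; Rpl36a and Rpl7l1 held none. The letters TTCCG, the core of a site for ETS-family factors, were found on either strand of the same 125 bases in 59.4% of the members and in 18.6% of all genes. CTTTCC, which overlaps both the pyrimidine run and TTCCG, was found in 29.7% and 11%, GGGCGG, the GC box, in 39.1% and 27.6%, and TATAAA in 7.81% and 6.62%. These are matches of letters in one window around an annotated start, which need not be the start used in macrophages. In Rpl36a, Rps2 and Rplp0 the letters TATAAA lay after that start. In Rps2 they followed the marked run, and in Rplp0 they shared a base with it. A marked run, or its absence, thus does not show whether the mRNA has a TOP element.

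Of the members called, Rpl22l1, a paralog of the large subunit gene Rpl22, had 15.6 CPM in sh1137 and 39.2 CPM in sh830, against 23.1 CPM in scrambled 1 and 61.3 CPM in scrambled 2. The hairpin library was the lower one in each kind of library, and the groups overlapped because sh830 lay above scrambled 1. Its log2 fold change was -0.61 ± 0.097 (SE, n = 2 each; adjusted p = 0.0197, edgeR). Rpl36a, an X-linked protein of the large subunit, had 63.3 and 158 CPM in the hairpin libraries, against 113 and 218 CPM in the scrambled libraries, a change of -0.65 ± 0.11 (adjusted p = 0.0238, edgeR). Rpl28, of the large subunit, had 117 and 238 CPM, against 168 and 321 CPM, a change of -0.48 ± 0.086 (adjusted p = 0.0250, edgeR). All of these, like every member called, showed one order of libraries, with sh1137 lowest, then scrambled 1, then sh830 and scrambled 2 highest.

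Rpl10a, which forms a flexible stalk of the large subunit beside the exit site for tRNA, had 168 and 365 CPM in the hairpin libraries, against 236 and 499 CPM in the scrambled libraries, a change of -0.47 ± 0.088 (adjusted p = 0.0271, edgeR). Rps2, of the small subunit near the mRNA entry, had 298 and 528 CPM, against 436 and 716 CPM, a change of -0.49 ± 0.095 (adjusted p = 0.0291, edgeR). The hairpin library was again below the scrambled one of its kind in both. Rpl7l1, a paralog of Rpl7, had 71.5 and 107 CPM, against 91.9 and 132 CPM, a change of -0.33 ± 0.082 whose adjusted p of 0.04999 (edgeR) lay just under the threshold. Rpl7l1 also had the narrowest difference between sh1137 and sh830 of the 79 members above 10 CPM per kb, at -0.58. In the build of the count files, mm9, these genes and Rplp0 lie at chr3:28704433-28706337 (Rpl22l1), chrX:131120193-131122601 (Rpl36a), chr7:4744567-4746149 (Rpl28), chr17:28465416-28467978 (Rpl10a), chr17:24857008-24858872 (Rps2), chr5:116009476-116013738 (Rplp0) and chr17:46910856-46919605 (Rpl7l1).

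**Figure D4:**
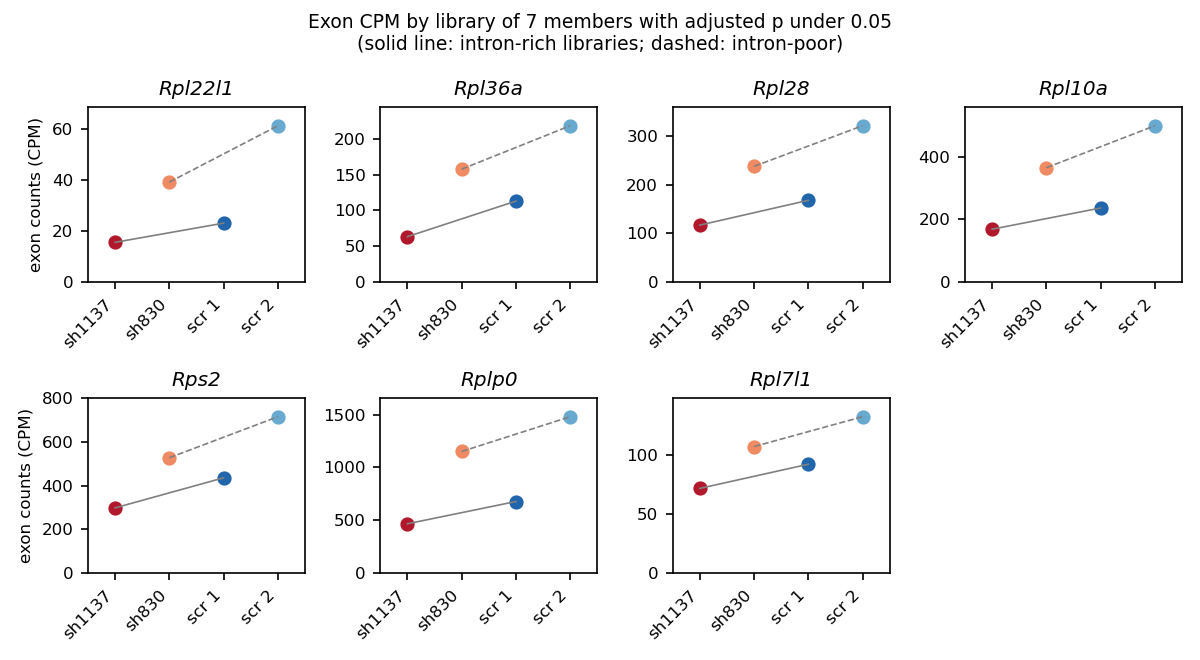
Exon CPM in each library of 7 members with an adjusted p under 0.05, hairpin libraries left and scrambled libraries right, each axis from 0. Solid lines join the intron-rich and dashed lines the intron-poor libraries, and in every panel both lines are higher at the scrambled end while sh830 lies above scrambled 1.

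Of the 3 genes of the acidic stalk, which recruits the GTPases of translation to the large subunit, 1 passed the test. Rplp0, the scaffold of the stalk, had 466 and 1151 CPM in the hairpin libraries, against 676 and 1480 CPM in the scrambled libraries, and its log2 fold change was -0.45 ± 0.11 (adjusted p = 0.0479, edgeR). Rplp1 had 193 and 502 CPM, against 261 and 566 CPM, a difference of -0.30 ± 0.11 that did not pass (adjusted p = 0.107, edgeR). Rplp2 had 121 and 272 CPM, against 137 and 217 CPM, a difference of 0.08 ± 0.14 (adjusted p = 0.727, edgeR). The 2 hairpins pointed opposite ways in Rplp2. A test of the difference between these genes was not run.

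Positive exon log2 fold changes were seen in 7 members, none of which passed the test. The largest among members of at least 1 CPM were those of Rplp2, Rpl32l at 0.07 ± 0.15 and Rps27, a zinc-finger protein of the small subunit, at 0.05 ± 0.095. Rpl39l, with 4 and 44 counts in the hairpin libraries, against 7 and 14 counts in the scrambled libraries, had 0.81 ± 0.71, and 1 library, sh830, stood above the rest. Rpl3l had 20 and 12 counts, against 17 and 10 counts, and 0.28 ± 0.52. At the low end, Rpl34 had 43 and 132 counts, against 76 and 166 counts, and -0.54 ± 0.29, which did not pass the test (adjusted p = 0.250, edgeR).

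In the paralog pairs, the parent gene and its relative were compared side by side and the difference between them was not tested. Rpl22, an RNA-binding protein of the large subunit, had 98.2 and 212 CPM in the hairpin libraries, against 102 and 201 CPM in the scrambled libraries, a difference of 0.01 ± 0.087 (adjusted p = 0.957, edgeR), beside the fall of Rpl22l1. Rpl7 had 337 and 711 CPM, against 408 and 790 CPM, and -0.21 ± 0.098 (adjusted p = 0.186, edgeR), beside the fall of Rpl7l1. Rpl36al, whose sequence is nearly that of Rpl36a and which shares 432 of its 517 exon bases with the same-strand gene Dnaaf2, had 7.36 and 15.6 CPM, against 9.95 and 17.6 CPM, and -0.30 ± 0.16. Reads of Rpl36a and Rpl36al could be split between them, so both values are uncertain. Rps27l had -0.33 ± 0.090 (adjusted p = 0.061, edgeR) beside the 0.05 of Rps27. Rpl3 had 424 and 727 CPM, against 574 and 920 CPM, and -0.39 ± 0.099 (adjusted p = 0.053, edgeR), beside the 0.28 of Rpl3l. Rpl32, with 143 and 436 CPM, against 189 and 479 CPM, had -0.27 ± 0.10, and Rpl39, with 71.0 and 200 CPM, against 101 and 132 CPM, had 0.05 ± 0.26, the widest SE of the members above 10 CPM per kb. In Rpl39, sh1137 lay below scrambled 1 and sh830 above scrambled 2. Over the 7 tested members with an l at the end 2 were lower, with a median of -0.30. Only 4 of these 7 changes were negative, and they ran from -0.61 to 0.81. Over the other 75 tested members 6 were lower (8%), with a median of -0.21, where 7.92% of all tested genes were lower.

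Intron counts come from unspliced RNA and from RNA processed out of introns, and of the members' own exon plus intron counts they were 4.73% in sh1137 and 1.76% in sh830, against 4.49% in scrambled 1 and 1.81% in scrambled 2, well under the shares over all genes given above. As part of all gene intron counts the members held 0.0978% and 0.329% in the hairpin libraries, against 0.132% and 0.383% in the scrambled libraries. Of the 82 members in the intron files 77 were tested. Rpl34, Rpl35 and Rpl36al had 0 intron counts in every library, and Rpl26 and Rpl39l too few. Rpl10l, Rps4l and Rpl32l, each with 1 exon interval in the annotation, were not among the genes counted in introns. Lower intron counts in the knockdown libraries were called for 9 of the 77 members and higher ones for 0, against 4.01% and 6.08% of all 12405 genes tested. The median log2 fold change was -0.36, against -0.01 over all tested genes, and 72 of 77 were negative, against 6376 of 12405. At an unadjusted p under 0.05, 35 members were lower and 0 higher, against 13.5% and 14.3% of all genes. DESeq2 with the same terms called 6 lower and 0 higher, against 2.8% and 4.53% of all genes it gave an adjusted p. The group term alone called 0 members with either tool, but in edgeR it also called 0 of all 12405 tested genes. At an unadjusted p under 0.05 that edgeR fit had 0 members, against 1.14% lower and 4.55% higher of all genes. With that term alone the members' median was 0.12 without sh1137, -0.95 without sh830, -0.67 without scrambled 1 and 0.21 without scrambled 2, with the kinds of library again not balanced between the groups. Within each kind of library the median was -0.45 for sh1137 minus scrambled 1, with 75 of 77 members lower against 49.9% of all tested genes, and -0.28 for sh830 minus scrambled 2, with 65 lower against 52.8%. Between the libraries of a group it was -1.14 for sh1137 minus sh830, with 75 lower against 49%, and -0.95 for scrambled 1 minus scrambled 2, with 76 lower against 51.1%.

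Rpl12, which sits at the base of the acidic stalk, had 21.2 intron CPM in sh1137 and 75.9 in sh830, against 33.1 in scrambled 1 and 135 in scrambled 2, a log2 fold change of -0.74 ± 0.10 in its introns (adjusted p = 0.011, edgeR). Rpl3, a protein close to the peptidyl transferase centre, had 47.1 and 96.9 intron CPM, against 69.4 and 142, a change of -0.56 ± 0.091 (adjusted p = 0.017, edgeR). In both sh830 lay above scrambled 1, so the groups overlapped. In 3 other genes called they did not: both hairpin libraries were below both scrambled libraries in Rps19, a small subunit gene mutated in Diamond-Blackfan anaemia in humans, with 30.2 and 37.0 intron CPM, against 44.4 and 58.5; in Rps4x, with 14.8 and 22.5, against 23.3 and 32.9; and in Rpl10a, with 28.2 and 41.5, against 42.4 and 55.2. Their changes were -0.61 ± 0.11, -0.61 ± 0.13 and -0.50 ± 0.11, with adjusted p-values of 0.023, 0.037 and 0.041 (edgeR). In all, 5 of the 77 members had introns without overlap in that direction, against 14.1% of all tested genes. Also called were Rpl17, at the exit tunnel, with -0.65 ± 0.12 and Rps3, at the mRNA entry, with -0.51 ± 0.11. Rpl10a was 1 of the 2 members called in both exons and introns.

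**Figure D5:**
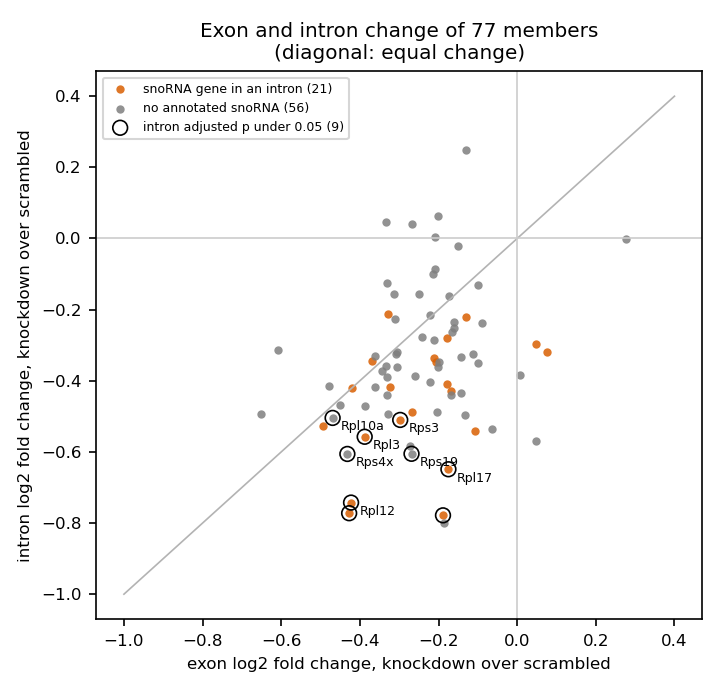
Exon log2 fold change (horizontal) and intron log2 fold change (vertical), knockdown over scrambled, of the 77 members tested in both; orange points have a snoRNA gene in an intron, circles mark the 9 members called in introns, and the diagonal is equal change. Most points lie in the lower left, with both changes negative in 67 of 77.

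Exon and intron changes were weakly related across the 77 members (Pearson's r = 0.26, Spearman's rho = 0.25 across genes), which share the same 4 libraries. The interaction of group and interval type, fitted over both kinds of counts, called 2 of 77 members with a lower intron than exon change and 0 with a higher one, against 1.45% and 2.18% of 11772 genes (at an unadjusted p under 0.05, 13 and 2 members, against 6.77% and 8.44% of genes). One of them was Rpl17, whose intron change was -0.49 ± 0.12 relative to its exon change (adjusted p = 0.0051, edgeR). Rpl17 had 15.6 and 67.1 intron CPM, against 22.1 and 116, beside 196 and 586 exon CPM, against 244 and 602. Its exon change did not pass the test. Over the 77 members the median of intron minus exon change was -0.09, against 0.01 over all genes tested.

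Introns of 21 members hold 25 annotated snoRNA genes on the same strand. These members are called hosts here, counted from intron intervals alone. Some exon intervals also share bases with a same-strand snoRNA gene, such as 145 of the 4238 exon bases of Rps3. A member with an overlap of that kind only is not counted as a host, and its exon counts may hold snoRNA reads. The host genes had a median intron level of 22.9 CPM per kb of intron, against 8.16 in the other 56 members tested in introns. Rpsa, the small subunit protein also known as the laminin receptor, had the highest level, with 10.6 and 139 CPM per kb of intron in the hairpin libraries, against 15.9 and 128 in the scrambled libraries. The next were Rpl23a, Rpl12, Rpl27a, Rpl10 and Rps2, and all 6 are snoRNA hosts. The raw intron counts of Rpsa were 633 in sh1137 and 3117 in sh830, against 930 in scrambled 1 and 2589 in scrambled 2, although the intron-poor libraries had far fewer intron counts in total. In 11 members intron counts were higher in the intron-poor than in the intron-rich library of both groups, and 10 of these 11 were hosts. Of the 9 members called in introns, 6 were hosts, among them Rpl12, Rpl3, Rpl17 and Rps3. That was 28.6% of the 21 hosts, beside 3 of the other 56 members (5.36%) and 4.01% of all genes tested in introns. The difference between hosts and other members was not tested. The hosts' median intron change was -0.42 over 21 members, against -0.34 over the other 56, and their median of intron minus exon change was -0.21, against -0.05. Whether reads from snoRNAs were counted in these intron intervals is not given in the sources used here. The snoRNA genes themselves have rows of their own: 23 of the 25 were tested in exon counts, 0 passed the test in either direction, 14 were negative and their median was -0.07. Snora65, inside Rpl12, had 88 and 109 counts in the hairpin libraries, against 142 and 133 counts in the scrambled libraries, and did not pass the test (-0.47 ± 0.28, adjusted p = 0.287, edgeR). Snord15a, inside Rps3, went the other way, with 202 and 236 counts, against 161 and 158 counts (0.47 ± 0.23, adjusted p = 0.200, edgeR).

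The exon files also hold 1107 regions outside genes that the authors took from a SICER comparison of samples called sh and LMP, per the source field of the deposited annotation, so a higher value in the hairpin libraries is no independent result. Of the regions, 2 lay within 5 kb of a member. The region at mm9 chr18:60908500-60933999 ends just before the start of Rps14, a small subunit gene on the plus strand, and had 24.7 and 7.49 CPM in the hairpin libraries, against 8.29 and 2.94 CPM in the scrambled libraries, a change of 1.47 ± 0.17 (adjusted p = 0.011, edgeR). Here the intron-rich libraries were the higher ones, and the groups overlapped. Rps14 itself had 155 and 431 CPM, against 196 and 481 CPM, and -0.25 ± 0.096 (adjusted p = 0.132, edgeR). The region at chr15:79914000-79921999, beyond the start of Rpl3 on the minus strand and named for the neighbouring gene Syngr1, had 6.75 and 3.20 CPM, against 2.03 and 2.11 CPM, and 1.17 ± 0.36, which did not pass the test (adjusted p = 0.081, edgeR).

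Genes that make or regulate ribosomes were read beside the members from lists chosen with earlier results of these data known. With the group term alone edgeR called 0 genes of any of these lists, as it called 0 of all tested genes. Of 4 ribosomal protein genes outside the symbol rule 1 was lower in exons, where 7.92% of all tested genes were. It was Rack1, a scaffold of the small subunit, with 404 and 882 CPM in the hairpin libraries, against 616 and 1164 CPM in the scrambled libraries (-0.50 ± 0.11, adjusted p = 0.037, edgeR). Of 18 translation factors and other genes with TOP mRNAs 1 was lower in exons, 5.56% of the list and under the 7.92% of all genes, with a median of -0.27. That was Npm1, a nucleolar chaperone, with 270 and 392 CPM, against 373 and 502 CPM. In introns 4 of 16 were lower, against 4.01% of all genes, the smallest p being that of Vim, the intermediate filament vimentin, at -0.62 ± 0.095 (adjusted p = 0.014, edgeR). Their library differences were smaller than those of the members, with medians of -0.63 for sh1137 minus sh830 and -0.52 for scrambled 1 minus scrambled 2.

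Of 40 ribosome biogenesis genes 17 were lower and 0 higher in exons, against 7.92% and 6.06% of all tested genes, with a median of -0.36, and all 17 calls were lost with the group term alone. Wdr12, a subunit of the PeBoW complex that processes large subunit RNA, had the smallest p, with 21.3 and 24.9 CPM in the hairpin libraries, against 32.9 and 38.6 CPM in the scrambled libraries (-0.63 ± 0.099, adjusted p = 0.019, edgeR). Both hairpin libraries lay below both scrambled libraries in Wdr12, and in 22 of the 40 genes of this list, against 15.7% of all tested genes. In introns 6 of 37 were lower, against 4.01% of all genes, led by the nucleolar helicase gene Ddx21 with 31.0 and 34.5 CPM, against 53.2 and 59.3 CPM (-0.78 ± 0.11, adjusted p = 0.010, edgeR). The 77 mitochondrial ribosomal protein genes, whose products form the separate ribosome of the mitochondrion, had 22 lower and 0 higher in exons, against 7.92% and 6.06% of all tested genes, with a median of -0.40. They had 19 genes whose hairpin libraries both lay below both scrambled libraries, against 15.7% of all tested genes. With the group term alone they had 0 calls, as did all tested genes. At an unadjusted p under 0.05 and with the library term, 50 were lower and 0 higher, against 18.3% and 14% of all tested genes. Without that term 0 were under 0.05, against 1.51% lower and 3.15% higher of all tested genes. Mrpl11 had 12.0 and 20.6 CPM, against 21.1 and 33.5 CPM (-0.76 ± 0.11, adjusted p = 0.018, edgeR). Their library differences had medians of -0.63 and -0.62. Introns of 2 of 72 mitochondrial members were lower, 2.78% of them and under the 4.01% of all genes. No test of these lists against the cytosolic genes was made.

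Of 15 regulators of ribosomal protein genes, one of which, Rps6, is itself a member, 1 was lower in exons, against 7.92% of all tested genes. It was Myc, a transcription factor that drives ribosome production, with 48.4 and 21.4 CPM in the hairpin libraries, against 65.7 and 32.7 CPM in the scrambled libraries (-0.52 ± 0.099, adjusted p = 0.028, edgeR). In Myc the intron-rich libraries were the higher ones. The TOP-binding protein gene Larp1 had 262 and 168 CPM, against 328 and 207 CPM, and -0.31 ± 0.085 (adjusted p = 0.062, edgeR), and Mtor, the kinase upstream of it, had 104 and 89.3 CPM, against 121 and 93.3 CPM, and -0.14 ± 0.087 (adjusted p = 0.317, edgeR). Rps6, a small subunit protein phosphorylated by the S6 kinases, had 376 and 785 CPM, against 503 and 971 CPM, and -0.36 ± 0.099 (adjusted p = 0.063, edgeR). In introns none of the 15 passed the test. At an unadjusted p under 0.05, 2 were lower and 0 higher, against 13.5% and 14.3% of all genes tested in introns.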

How the data were processed

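The authors deposited raw counts of reads per gene over exon and over intron intervals of UCSC mm9 genes, a unit read from the values. TopHat 1.3.1, Cufflinks 2.1.1, Cuffdiff 2.1.1 and SICER are named, per the submitters' processing notes; the counting tool and its use of strand are not given in the sources used here. Of 14 samples, 4 were used and 10 were not analysed here. Entrez IDs were matched to symbols in RefSeq for 21615 of 21761 genes. Counts were tested with edgeR 4.0.16 (R 4.3.3; glmQLFit, filterByExpr, TMM, terms for group and library kind, Benjamini-Hochberg at 0.05), exons and introns apart, and DESeq2 1.42.0 was an alternative. Levels are CPM per kb of interval. The procedure was tested on simulated data. Intervals and floors (3 counts) cover counting error only. The members and lists were chosen with earlier results of these data known. Genes were named by rule: members called, extremes of level and change, paralog pairs, stalk genes, members that failed the filter, and the smallest p of each list. Snora65, Snord15a, Rps14, Larp1, Mtor and Rps6 were added after their values were seen. Some results are not reported here.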

Additional observations from a re-analysis of the deposited data

How the results depend on the processing

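No paired analysis was possible by replicate number because the knockdown libraries carry none. The library term sets sh1137 with scrambled 1 and sh830 with scrambled 2 from their intron shares, a block taken from the data and not from the labels, and the group term alone is the fit without it. Members called lower in exons (8) numbered 0 with the group term alone in edgeR and in DESeq2, 23 with DESeq2 and the same terms, 16 with TMM factors without the members, 22 without a filter, and 5 with library totals or upper quartile factors. Factors taken before the filter, an alternative chosen after seeing the data, gave 14. Members called lower in introns (9) numbered 0 with the group term alone in either tool, 21 with DESeq2's size factors in edgeR, 18 with factors taken before the filter, 28 without a filter and 3 without snoRNA hosts (the last also chosen after seeing the data). Intron against exon calls (2) numbered 4 with library totals and 0 without the split term. Over all tested genes, calls were counted only for the main fits, for edgeR with the group term alone (0) and for DESeq2 with the same terms. The member counts of the other fits thus have no background share beside them. The cause of these shifts was not tested. The 3 without snoRNA hosts is the same fit with the hosts left out of the count, so that number is no further test. The median change of the members was negative in each alternative that kept all libraries.

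Leaving out 1 library, with the group term alone, leaves a lone library assumed to vary like the other group. It also leaves the kinds of library unbalanced between the groups, so group and library differences cannot be told apart in these fits. Members lower ranged from 0 to 0 in exons, from 0 to 10 in introns (10 without sh830) and from 0 to 0 for intron against exon. The median ranged from -0.98 (without sh830) to 0.45 (without scrambled 2; 0.29 without sh1137) in exons and from -0.95 to 0.21 in introns. Single genes ranged in exons from -1.12 to 0.20 (Rpl10a), -1.44 to 0.27 (Rpl22l1), -1.06 to 0.10 (Rpl28) and -1.21 to 0.28 (Rplp0). In introns they ranged from -1.99 to 0.53 (Rpl12), -2.14 to 0.88 (Rpl17), -1.17 to 0.036 (Rpl3) and -2.15 to 1.08 (Rps3), and for intron against exon from -0.98 to 0.036 (Rpl17). Over exon plus intron counts the members' share was 0.870% in sh1137 and 2.79% in sh830, against 1.14% in scrambled 1 and 3.04% in scrambled 2; without members ending in l it was 1.54% and 3.26%, against 1.89% and 3.52%. Intron library differences with library totals were -1.56 (sh1137 minus sh830) and -1.31 (scrambled 1 minus scrambled 2). Member intron counts, which set the precision in introns, came to 26915 in sh1137 and 25606 in sh830, against 35966 in scrambled 1 and 27919 in scrambled 2.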
